A study of Mus musculus with 4 samples.

Results

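The carbonic anhydrases of mouse bone marrow were followed across 4 sorted fractions: 9 genes (Car1, Car2, Car3, Car4, Car6, Car8, Car9, Car12 and Car13) among 20284 named genes on the array, read by 12 of its 55678 probes. The family was chosen on the values of Car1, which showed large steps in opposite directions in these same data, and all comparisons of the members are given as descriptions without a test. Every fraction was sorted from marrow of female C57BL6 mice aged 8 weeks, unmodified and untreated as far as the labels say. Lin+ cells carried lineage antigens and stand for differentiated cells. Progenitor cells were labelled c-Kit-positive and lineage-negative, but a protocol text common to all samples calls them Sca-1-negative and mentions Lineage+ cells too, so their gate is uncertain. Short-term haematopoietic stem cells (ST-HSC) were CD34-positive, and long-term haematopoietic stem cells (LT-HSC) CD34-negative, both c-Kit-positive, Sca-1-positive and lineage-negative. Each fraction had 1 array hybridised with Cy3-labelled cRNA amplified from 10 ng of total RNA. How many mice were pooled is not in the labels, and 1 array per fraction gives no spread between animals.

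Carbonic anhydrases are zinc enzymes that interconvert carbon dioxide and bicarbonate with release or uptake of a proton. Cytosolic forms work in red cells, where they let blood carry carbon dioxide as bicarbonate, and in osteoclasts, where they feed the proton pump that dissolves bone mineral. Other forms sit on the cell surface or are secreted and set the pH around the cell, and a few family members have lost the catalytic zinc site.

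A level here is the log2 of the background-subtracted signal minus the 75th percentile of its array, so a level of 0 marks that percentile and levels of different probes are not set against each other. The ± beside a value is the scanner software's error of the spot, on the log2 scale, and does not measure variation between mice. Differences are log2 of the first fraction named minus the second. A gene was called higher or lower where it differed by at least 2-fold, and it was compared where at least 1 of the 2 arrays had it well above background. A side that was not well above background was set to the lowest well-above-background level of its array, or to its own value if higher, which gives a bound written as "at least". Across the 4 arrays 40.9% to 45.9% of probes were well above background and no spot was saturated. The median gene measured on both arrays itself differed by 0.03 in ST-HSC against LT-HSC, by 0.21 in progenitors against ST-HSC, by -0.42 in Lin+ cells against progenitors and by -0.21 in Lin+ cells against LT-HSC. Cd34 had a level of 7.34 (LT-HSC), 8.53 (ST-HSC), 7.51 (progenitors) and 3.26 (Lin+), so the fraction sorted as CD34-negative still had Cd34 RNA well above background. The Kit level was 5.63 (LT-HSC), 5.004 (ST-HSC), 4.42 (progenitors) and 1.67 (Lin+). Ly6a, the Sca-1 gene, had 4.52, 3.12, 2.28 and 4.51 in the same order, as high in Lin+ cells as in LT-HSC. Of other sorting antigens, Itgam (5.17, 5.03, 4.83 and 5.07) and Cd4 (2.39, 2.42, 2.78 and 2.91) were nearly level. Ptprc was highest in Lin+ cells (2.36), and Cd8a was well above background only in progenitors (-1.18) and Lin+ cells (-1.65). Of 8 markers of long-term HSC, LT-HSC had 8 well above background, ST-HSC 4, progenitors 5 and Lin+ cells 3.

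Car1 and Car2, the cytosolic enzymes of red cells, were lowest in ST-HSC, while Car3, Car9 and Car12 were lowest in Lin+ cells and Car4 and Car13 kept nearly level. Of the 9 members, 7 could be compared in each of the 4 comparisons, and Car6 and Car8 were not well above background on any array. In ST-HSC against LT-HSC, Car12 was called higher and Car1 and Car2 lower, where 5.81% of all compared genes were called higher and 9.01% lower. In progenitors against ST-HSC, Car1 and Car2 were called higher and no member lower, beside 10.0% of all compared genes higher and 10.2% lower. In Lin+ cells against progenitors, Car2 was called higher and Car1, Car3, Car9 and Car12 lower, beside 14.5% of all compared genes higher and 26.4% lower. In Lin+ cells against LT-HSC, Car2 was called higher and Car3, Car9 and Car12 lower, beside 16.1% of all compared genes higher and 23.2% lower. The median difference over the 7 members was -0.17, 0.21, -1.92 and -0.80 in these 4 comparisons in turn, beside 0.02, 0.18, -0.34 and -0.17 over all compared genes. The first of these member medians turned to 0.14 with spike-in scaling, and the second to -0.42 with spike-in scaling, -0.05 with the percentile over probes well above background on all arrays and -0.10 with gene span groups, so neither has a settled sign. With only members well above background on both arrays the last 2 came to -1.19 and -0.18. Neighbouring comparisons share an array, so a low value in ST-HSC enters the first with one sign and the second with the other.

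**Figure D1:**
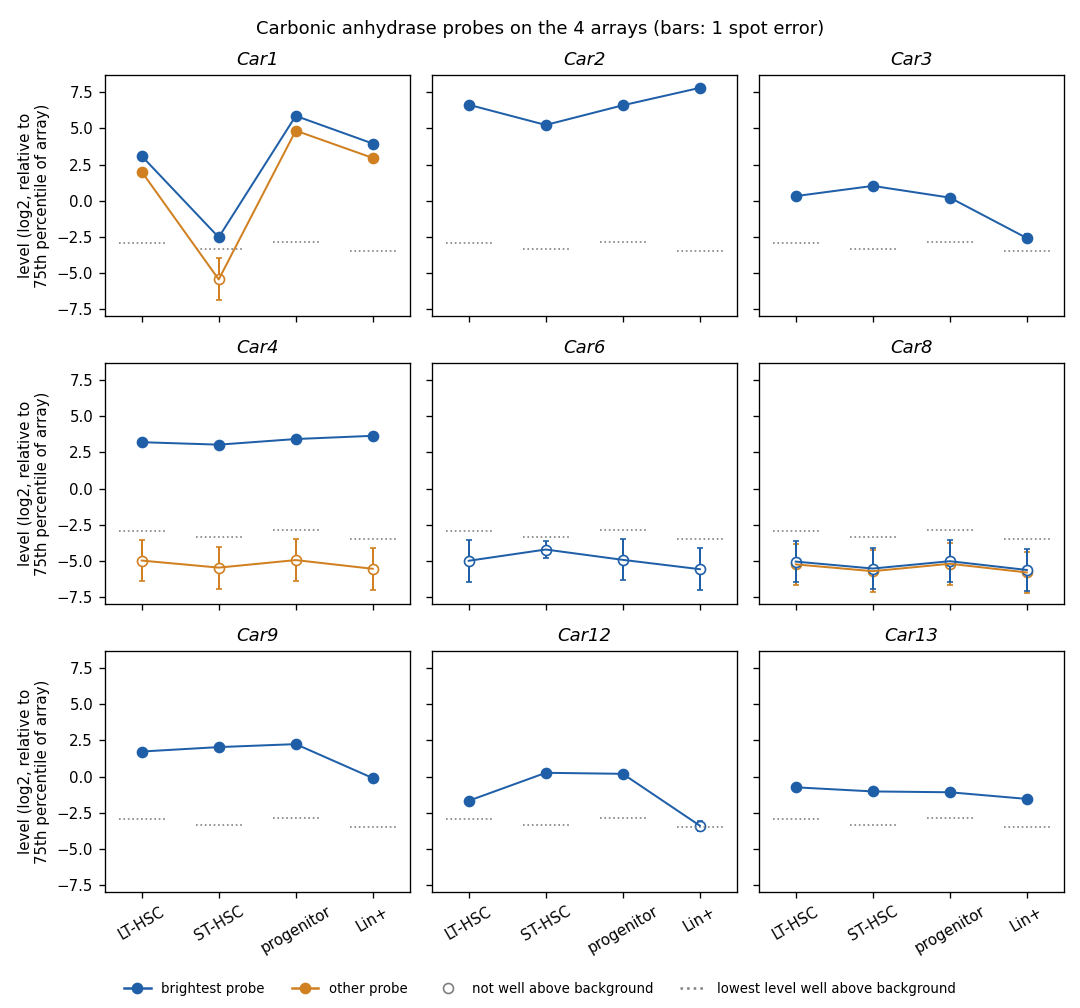
Level of every probe of the 9 carbonic anhydrases (log2 relative to the 75th percentile of the array, vertical axis) in LT-HSC, ST-HSC, progenitors and Lin+ cells, 1 array each; bars are 1 spot error, often smaller than the point, open points are not well above background, and dotted lines mark the lowest level that is. Both Car1 probes dip in ST-HSC, Car3, Car9 and Car12 drop in Lin+ cells, and Car6 and Car8 lie below the dotted lines.

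Car1 (Entrez gene 12346), a cytosolic enzyme abundant in mature red cells, had the widest range of the family. Its brighter probe, A_52_P317653, gave a processed signal of 1628 (LT-HSC), 37.3 (ST-HSC), 8038 (progenitors) and 3564 (Lin+). Those signals correspond to levels of 3.09 ± 0.14, -2.54 ± 0.24, 5.87 ± 0.14 and 3.95 ± 0.14, all well above background. Progenitors were thus highest, followed by Lin+ cells, LT-HSC and ST-HSC, and each pair of neighbours in this order differed beyond spot error, meaning that the 95% interval given by the combined spot error left out 0. In ST-HSC the spot's median signal of 83.0 stood over a local background of 52.0, so the value that makes both steps large is a dim one. Car1 was 49.6-fold lower in ST-HSC than in LT-HSC (-5.63 ± 0.28), the second lowest of 12621 genes with bounds taken at their value. It was 341-fold higher in progenitors than in ST-HSC (8.41 ± 0.28), rank 3 of 12614 on the same terms. Against the median gene these differences were -5.66 and 8.21. In Lin+ cells Car1 was 3.78-fold lower than in progenitors (-1.92 ± 0.20), and its difference from LT-HSC, 0.86 ± 0.20, was beyond spot error but under 2-fold. Progenitors exceeded LT-HSC by 6.88-fold (2.78 ± 0.20), and Lin+ cells exceeded ST-HSC by 90.2-fold (6.50 ± 0.28).

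The other Car1 probe, A_55_P2099952, gave 767, 4.92, 3960 and 1786 in LT-HSC, ST-HSC, progenitors and Lin+ cells. Its ST-HSC spot was not well above background, so it sets bounds there: at least 41.9-fold lower in ST-HSC than in LT-HSC and at least 302-fold higher in progenitors than in ST-HSC. Where both probes were measured they differed little, with -1.92 and -1.89 in Lin+ cells against progenitors and 0.86 and 0.95 in Lin+ cells against LT-HSC. Both probes therefore showed the dip in ST-HSC, on the same 4 arrays and from the same RNA.

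Markers of other cells moved beside Car1. On the linear scale, in multiples of the 75th percentile, the 19 erythroid markers summed to 123 (LT-HSC), 44.9 (ST-HSC), 380 (progenitors) and 8534 (Lin+), with 10, 10, 16 and 18 of them well above background. The 12 megakaryocyte markers summed to 212, 26.7, 308 and 11.1 in the same order, with 10, 9, 10 and 7 well above background. Most of their sum in progenitors came from Pf4 alone (level 7.92). The median megakaryocyte marker differed by -0.03 in progenitors against LT-HSC, beside 0.18 over all compared genes. In ST-HSC against LT-HSC 1 of 12 compared erythroid markers was called higher and 6 lower, and 0 of 10 compared megakaryocyte markers higher and 10 lower. Of all compared genes 5.81% were higher and 9.01% lower there. In progenitors against ST-HSC 14 of 17 erythroid markers were higher and 1 lower, and 9 of 10 megakaryocyte markers higher and 0 lower. Also higher were 5 of 5 granulocyte-monocyte progenitor, 7 of 9 basophil, mast cell and eosinophil, 6 of 8 neutrophil and 4 of 6 monocyte and macrophage markers. None of these 4 lists had a lower marker. For B cells 1 of 3 was higher and 0 lower, and for T and NK cells 0 of 3 higher and 1 lower. Of all compared genes 10.0% were higher and 10.2% lower. In Lin+ cells against progenitors, where Car1 was lower, 13 of 18 erythroid markers were higher and 0 lower, led by the haem enzyme Alas2 (10.05 ± 0.23) and the globin gene Hbb-bs (9.62 ± 0.21). Car1 and these 2 genes thus differed in opposite directions there. The compared erythroid markers not called were Klf1 (0.45), Gata1 (-0.40), Epor (0.24), Ermap (0.28) and Aqp1 (0.88), each ± 0.20. Of all compared genes 14.5% were higher and 26.4% lower. In the same comparison 0 of 10 megakaryocyte markers were higher and 10 lower, and 0 of 5 granulocyte-monocyte progenitor markers higher and 5 lower, in the direction of Car1. Other lists went the opposite way. Higher were 9 of 9 neutrophil, 7 of 9 basophil, mast cell and eosinophil, 8 of 8 B cell, 5 of 7 monocyte and macrophage and 4 of 6 T and NK cell markers, with 0 lower in each list. The 5 granulocyte-monocyte progenitor markers were all higher in ST-HSC than in LT-HSC, where Car1 was lower. The part of these cells in the Car1 values was not tested, and in sorted bulk RNA fewer cells of a type and less RNA per cell cannot be told apart.

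Car2 (Entrez gene 12349), the fast cytosolic enzyme of red cells and of osteoclasts, had the same low point with smaller steps. Its probe gave 19122 (LT-HSC), 8216 (ST-HSC), 13365 (progenitors) and 51764 (Lin+). The levels were 6.64, 5.24, 6.60 and 7.81, each ± 0.14. Lin+ cells were highest and ST-HSC lowest, and LT-HSC and progenitors did not differ beyond spot error (progenitors minus LT-HSC, -0.04 ± 0.20). Car2 was 2.64-fold lower in ST-HSC than in LT-HSC (-1.40 ± 0.20) and 2.57-fold higher in progenitors than in ST-HSC (1.36 ± 0.20). The call in progenitors against ST-HSC was lost with spike-in scaling (0.74) and with quantile normalization (0.87). It was 2.31-fold higher in Lin+ cells than in progenitors (1.21 ± 0.20), the step in which Car1 was lower, and 1.63 above the median gene there. Against LT-HSC, Lin+ cells had 2.25-fold more (1.17 ± 0.20), a call lost when arrays were scaled by their median (0.92).

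Osteoclast markers are given beside Car2 because osteoclasts use this enzyme. The 7 markers summed to 7.32 (LT-HSC), 6.29 (ST-HSC), 13.2 (progenitors) and 152 (Lin+), with 3, 4, 3 and 4 well above background. Of the 7, 0 of 4 compared were higher and 1 lower in ST-HSC against LT-HSC, and 1 of 4 higher and 0 lower in progenitors against ST-HSC. There were 3 of 4 higher and 0 lower in Lin+ cells against progenitors, and 3 of 5 higher and 1 lower in Lin+ cells against LT-HSC. Called higher among all compared genes were 5.81%, 10.0%, 14.5% and 16.1% in turn, and called lower 9.01%, 10.2%, 26.4% and 23.2%. Acp5, the tartrate-resistant acid phosphatase, had levels of 2.23 (LT-HSC), 2.17 (ST-HSC), 3.54 (progenitors) and 7.19 (Lin+). Most of the Lin+ sum came from this gene alone. Ctsk, the collagen-degrading protease of osteoclasts, was well above background only in Lin+ cells, and Calcr and Atp6v0d2 on no array. Ocstamp, a fusion protein of osteoclasts, was at least 27.3-fold higher in Lin+ cells than in LT-HSC, Dcstamp, another, was at least 4.67-fold lower, and the receptor Oscar was not called (-0.84 ± 0.21). The part of osteoclasts in the Car2 values was not tested.

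Car3 and Car13 are cytosolic too. Car3 (Entrez gene 12350), an enzyme of low activity known from muscle and fat, gave 238 (LT-HSC), 440 (ST-HSC), 159 (progenitors) and 38.0 (Lin+), with levels of 0.31, 1.02, 0.21 and -2.60. It was highest in ST-HSC and lowest in Lin+ cells, and LT-HSC and progenitors did not differ beyond spot error. In Lin+ cells it was 6.99-fold lower than in progenitors (-2.80 ± 0.30), 7.52-fold lower than in LT-HSC (-2.91 ± 0.30) and 12.3-fold lower than in ST-HSC (-3.62 ± 0.30). The Lin+ spot was dim, with a median signal of 84.0 over a local background of 54.0. With a normexp background correction the first 2 of these differences shrank to -1.55 and -1.625, still called. Car3 differences of 0.71 ± 0.21 in ST-HSC against LT-HSC and -0.81 ± 0.21 in progenitors against ST-HSC were beyond spot error and under 2-fold. The second of these passed 2-fold in 4 alternatives: with the percentile taken over probes well above background on all arrays (-1.07), the median gene set to 0 (-1.02), spike-in scaling (-1.44) and gene span groups (-1.15). Of 6 muscle and fat markers 1, 1, 0 and 2 were well above background in the order of the signals above, with sums of 1.1, 0.306, 0.344 and 1.16. Adipoq, Plin1, Myh4 and Acta1 were not well above background on any array. Ckm, the muscle creatine kinase, was well above background in ST-HSC (-2.70), where Car3 was highest, and in Lin+ cells (-2.47), and Fabp4, a fatty acid carrier of fat and endothelium, in LT-HSC (-0.29) and Lin+ cells (-0.28). The part of muscle or fat cells in the Car3 values was not tested.

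Car13 (Entrez gene 71934) gave 114, 106, 64.5 and 78.6 in LT-HSC, ST-HSC, progenitors and Lin+ cells, with levels of -0.75, -1.03, -1.09 and -1.55. No neighbours in that order differed beyond spot error. The ends of the range, Lin+ cells and LT-HSC, differed by -0.80 ± 0.24, which was under 2-fold except with median scaling (-1.06).

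These 4 cytosolic genes are neighbours. In the RefSeq annotation of assembly GRCm38.p6 they follow each other on chromosome 3 in the order Car13, Car1, Car3, Car2, with Rbis before and Gm9733 after them among coding genes. Their patterns differed in spite of this. In progenitors against ST-HSC the differences in map order were -0.06, 8.41, -0.81 and 1.36, and in Lin+ cells against progenitors -0.46, -1.92, -2.80 and 1.21. The 2 genes low in ST-HSC, Car1 and Car2, are separated on the map by Car3, which was highest there.

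Car4 (Entrez gene 12351), an enzyme tethered to the outer cell membrane by a lipid anchor, was nearly level. Its probe gave 1776 (LT-HSC), 1792 (ST-HSC), 1484 (progenitors) and 2902 (Lin+), with levels of 3.21, 3.04, 3.43 and 3.66. No neighbours in the order differed beyond spot error, and the widest gap, Lin+ cells against ST-HSC, was 0.61 ± 0.20, beyond spot error and under 2-fold. A second Car4 probe gave 4.43 to 6.02 and was not well above background on any array, so the 2 probes of this gene disagree on whether it is detected.

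Car9 and Car12 are transmembrane enzymes with an outward-facing catalytic domain, and both are known for induction by low oxygen. Both were lower in Lin+ cells. The promoters of these 2 are shown because the data give them a common drop and because Car9 is a textbook target of hypoxia-inducible factor (HIF). The 250 bases before each RefSeq start site (GRCm38.p6, plus strand for both) were searched on both strands for ACGTG and GCGTG, the HIF core letters. Capitals mark each match:
Car9, chr4:43506776-43507025: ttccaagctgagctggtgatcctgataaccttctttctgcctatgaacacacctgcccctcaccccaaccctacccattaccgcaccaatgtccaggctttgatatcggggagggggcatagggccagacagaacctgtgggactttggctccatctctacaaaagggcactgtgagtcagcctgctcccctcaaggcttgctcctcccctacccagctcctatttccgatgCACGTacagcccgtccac
Car12, chr9:66713436-66713685: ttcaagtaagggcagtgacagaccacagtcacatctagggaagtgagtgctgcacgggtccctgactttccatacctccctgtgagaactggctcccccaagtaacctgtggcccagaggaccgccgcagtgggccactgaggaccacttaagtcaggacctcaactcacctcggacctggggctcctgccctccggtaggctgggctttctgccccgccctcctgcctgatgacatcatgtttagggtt
Car9 holds 1 match, on the opposite strand, beginning 18 bases before the start, and Car12 holds none. Of the other 2 members in the promoter table, Car6, which was not well above background on any array, holds 2 overlapping matches beginning 149 and 148 bases before the start, and Car4 holds none. At least 1 match was held by 38.6% of the 32851 RefSeq promoters, and a match describes letters, not binding.

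Car9 (Entrez gene 230099) gave 636 (LT-HSC), 894 (ST-HSC), 652 (progenitors) and 214 (Lin+), with levels of 1.73, 2.04, 2.25 and -0.11. The lineage-negative fractions were high and neighbours among them did not differ beyond spot error, although progenitors exceeded LT-HSC by 0.51 ± 0.20. Lin+ cells were low. Car9 was 5.11-fold lower in Lin+ cells than in progenitors (-2.35 ± 0.21) and 3.58-fold lower than in LT-HSC (-1.84 ± 0.21), or -1.93 and -1.63 against the median gene. In ST-HSC against LT-HSC (0.31 ± 0.20) and in progenitors against ST-HSC (0.21 ± 0.20) it was not called, and the second equals the shift of the median gene.

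Car12 (Entrez gene 76459) gave 59.8 (LT-HSC), 260 (ST-HSC), 157 (progenitors) and 21.8 (Lin+), where it was not well above background. The levels were -1.68, 0.26, 0.19 and -3.40. It was 3.83-fold higher in ST-HSC than in LT-HSC (1.94 ± 0.25), rank 152 from the highest of 12621 genes on those terms. ST-HSC and progenitors did not differ beyond spot error (progenitors minus ST-HSC, -0.07 ± 0.21). Lin+ cells were called 12.0-fold lower than progenitors (-3.59 ± 0.38) and 3.30-fold lower than LT-HSC (-1.72 ± 0.40). The dim Lin+ spot entered both with its own value, so these are estimates and not strict limits. With a normexp background correction they came to -1.84 and -0.73, and the second was not called. The step in ST-HSC against LT-HSC came to 1.22 with that correction and stayed called.

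Car6, the secreted enzyme of saliva, gave 5.97 (LT-HSC), 11.6 (ST-HSC), 4.48 (progenitors) and 4.79 (Lin+), none well above background. Car8, a family member without catalytic activity known from cerebellar Purkinje cells, gave 3.71 to 5.74 over its 2 probes, none well above background. Neither gene has a fold difference here.

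**Figure D2:**
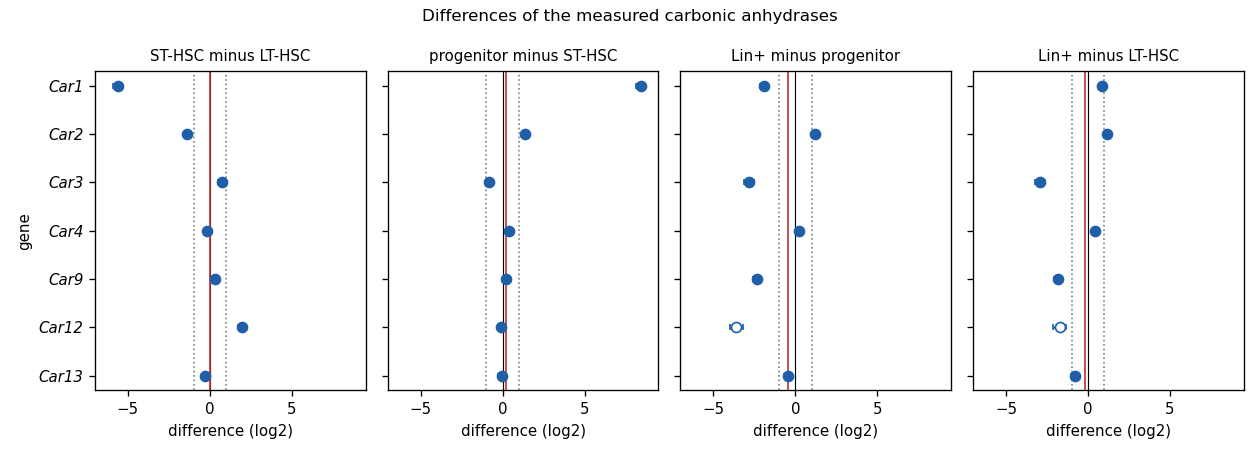
Differences (log2, horizontal axis) of the 7 compared carbonic anhydrases in the 4 comparisons, with bars of 1 combined spot error, mostly smaller than the point. Open points are bounds, dotted lines mark 2-fold, and the red line is the median gene measured on both arrays. Car1 stands at -5.63 and 8.41 in the comparisons that use the ST-HSC array, and Car3, Car9 and Car12 lie left of the lines in Lin+ cells.

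**Figure D3:**
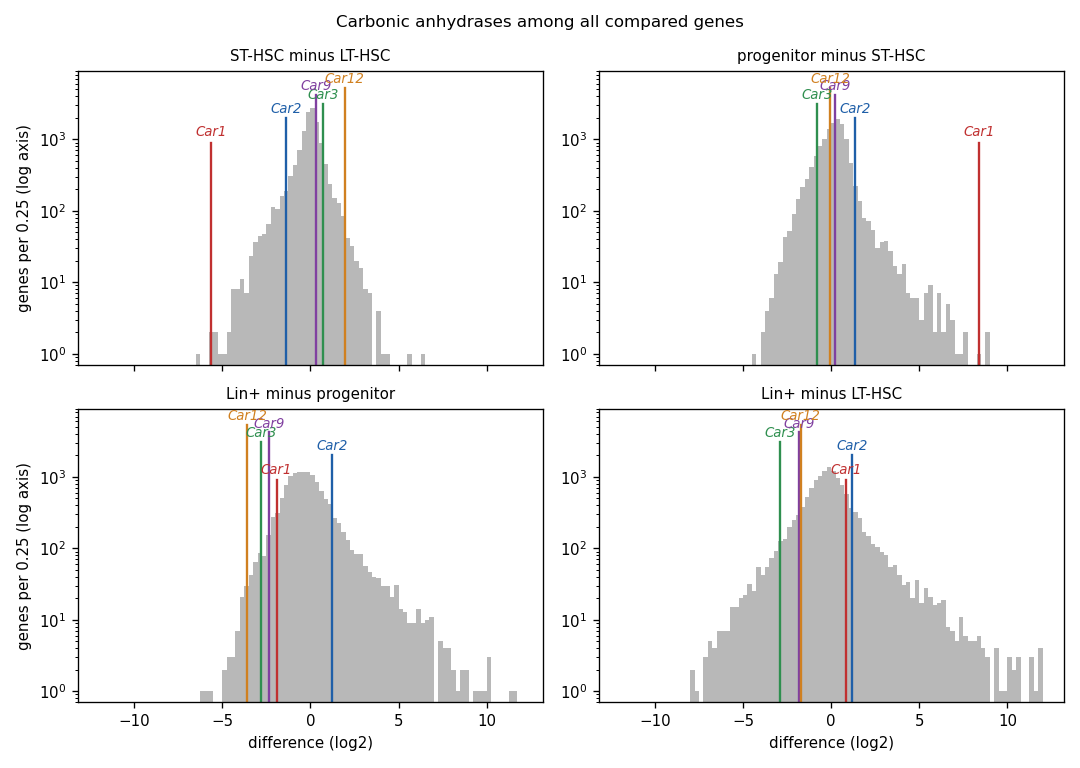
Number of compared genes per 0.25 of log2 difference (log vertical axis) in each comparison, bounds drawn at their value, with lines for 5 carbonic anhydrases. Car1 lies at the end of the distribution in ST-HSC minus LT-HSC and in progenitor minus ST-HSC, and inside it in both comparisons of Lin+ cells.

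The 7 other carbonic anhydrases on the array showed no step as large as those of Car1 at ST-HSC. Of 4 compared in each comparison, 0 were called in ST-HSC against LT-HSC, 2 were higher in progenitors against ST-HSC, 1 was lower in Lin+ cells against progenitors and 1 was lower in Lin+ cells against LT-HSC. Beside these stand 5.81%, 10.0%, 14.5% and 16.1% of all compared genes higher in turn, and 9.01%, 10.2%, 26.4% and 23.2% lower. The 1 of 4 lower in each comparison of Lin+ cells is close to the share over all genes. Car11, a family member without catalytic activity, was higher in progenitors than in ST-HSC (1.22 ± 0.33) and lower in Lin+ cells than in progenitors (-1.03 ± 0.30). Car14, a transmembrane enzyme, was well above background only in progenitors, at least 2.01-fold over ST-HSC. Car5b, a mitochondrial enzyme, was well above background only in LT-HSC, and Lin+ cells were at least 2-fold lower. Car7, a cytosolic enzyme, had levels of 2.88 (LT-HSC), 2.23 (ST-HSC), 2.76 (progenitors) and 3.63 (Lin+), lowest in ST-HSC and highest in Lin+ cells like Car2. Car5a and Car10 were not well above background on any array.

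Red cell carbonic anhydrases work with proteins that pass their substrates and products through the membrane. Of the membrane gas channels, Aqp1 and Rhd were lower in ST-HSC than in LT-HSC and higher in progenitors than in ST-HSC. Aqp1, a water channel that also conducts carbon dioxide, had levels of 4.97 (LT-HSC), 1.18 (ST-HSC), 7.21 (progenitors) and 8.09 (Lin+). It was lower in ST-HSC than in LT-HSC (-3.79 ± 0.20) and higher in progenitors than in ST-HSC (6.03 ± 0.20). Rhd, a Rhesus protein of the red cell membrane, was at least 13.8-fold lower in ST-HSC than in LT-HSC and at least 489-fold higher in progenitors than in ST-HSC. Rhag, the Rhesus-associated channel protein, was at least 8.71-fold higher in progenitors than in ST-HSC. Rhbg, a Rhesus family protein best known from epithelia, was at least 2.36-fold lower in ST-HSC than in LT-HSC. Rhag was not well above background in LT-HSC or ST-HSC, nor Rhbg in ST-HSC or progenitors. Of this list of 5, 0 of 3 compared were higher and 3 lower in ST-HSC against LT-HSC, and 3 of 3 higher in progenitors against ST-HSC. Unlike Car1, Rhd (2.17 ± 0.20) and Rhag (2.73 ± 0.21) were higher again in Lin+ cells than in progenitors, where 3 of 4 were higher and 0 lower. Against LT-HSC, 4 of 5 were higher in Lin+ cells and 1 lower. The shares of all compared genes were 5.81%, 10.0%, 14.5% and 16.1% higher in turn, and 9.01%, 10.2%, 26.4% and 23.2% lower. Aqp1, Rhd and Rhag are also on the erythroid list.

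The bicarbonate and anion exchangers were split. Of 20 on the array, 0 of 9 compared were higher and 2 lower in ST-HSC against LT-HSC, and 3 of 10 higher and 2 lower in progenitors against ST-HSC. There was 1 of 9 higher and 2 lower in Lin+ cells against progenitors, and 2 of 9 higher and 2 lower in Lin+ cells against LT-HSC. Among all compared genes 5.81%, 10.0%, 14.5% and 16.1% were higher in that order, and 9.01%, 10.2%, 26.4% and 23.2% lower. Slc4a1, the band 3 protein that exchanges chloride for bicarbonate in red cells, was not well above background in LT-HSC and had levels of -3.06 (ST-HSC), -0.57 (progenitors) and 8.92 (Lin+). It was higher in progenitors than in ST-HSC (2.49 ± 0.35) and higher in Lin+ cells than in progenitors (9.49 ± 0.22). Slc26a1, a sulfate and anion exchanger, differed in the same directions as Car1 in 3 comparisons. It was at least 2.69-fold lower in ST-HSC than in LT-HSC, at least 28.0-fold higher in progenitors than in ST-HSC and lower in Lin+ cells than in progenitors (-2.61 ± 0.21). Slc26a11 had the opposite sign in progenitors against ST-HSC (-1.80 ± 0.07), as did the sodium-bicarbonate cotransporter Slc4a7 (-1.12 ± 0.21), while Slc4a9 was higher there (1.41 ± 0.22). Slc4a3, a chloride-bicarbonate exchanger, was lower in ST-HSC than in LT-HSC (-1.59 ± 0.29).

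**Figure D4:**
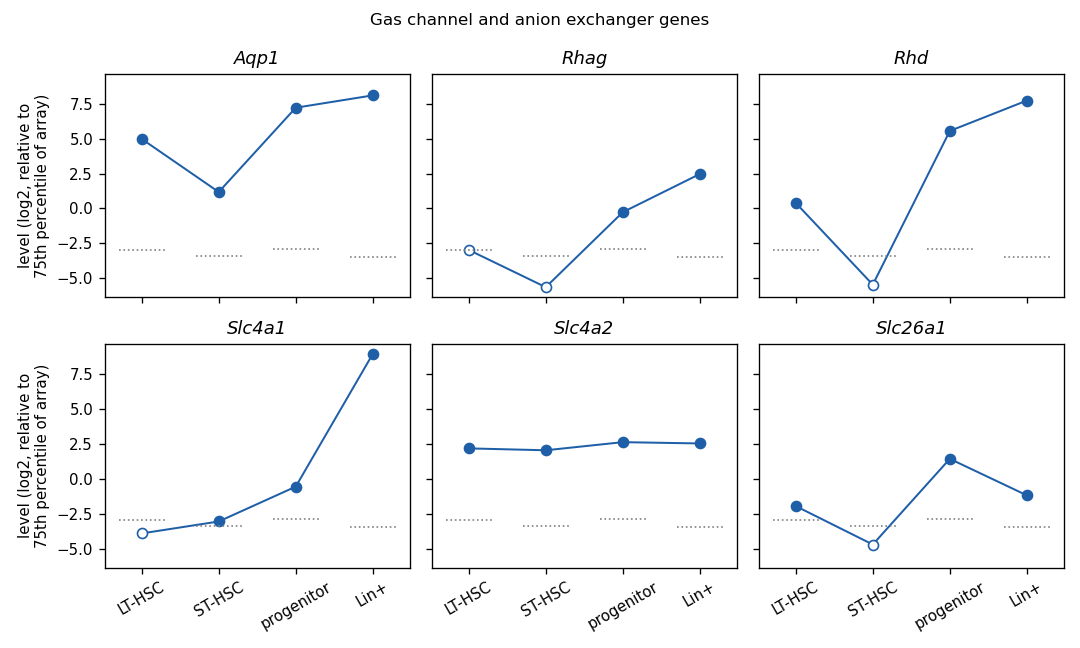
Level (log2 relative to the 75th percentile of the array, vertical axis) of 3 gas channel genes and 3 anion exchanger genes in LT-HSC, ST-HSC, progenitors and Lin+ cells, 1 array each; open points are not well above background and dotted lines mark the lowest level that is. Aqp1 and Rhd dip in ST-HSC, and Slc4a1 reaches 8.92 in Lin+ cells.

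Genes linked to HIF are given beside Car9 and Car12. Of 14 on the array, 0 of 13 compared were higher and 1 lower in ST-HSC against LT-HSC, and 1 of 13 higher and 0 lower in progenitors against ST-HSC. Those called were 1 of 14 higher and 3 lower in Lin+ cells against progenitors, and 2 of 13 higher and 6 lower in Lin+ cells against LT-HSC. Over all compared genes 5.81%, 10.0%, 14.5% and 16.1% were higher in these comparisons in turn, and 9.01%, 10.2%, 26.4% and 23.2% lower. The 3 of 14 lower against progenitors were a smaller share than that over all genes, and the 6 of 13 against LT-HSC a larger one. Vegfa, the vascular growth factor, was lower in ST-HSC than in LT-HSC (-1.24 ± 0.14), and Aldoa, a glycolytic aldolase, was higher in progenitors than in ST-HSC (1.09 ± 0.20). The list medians in the comparisons of Lin+ cells were -0.65 against progenitors and -0.80 against LT-HSC, beside -0.34 and -0.17 over all compared genes. The 3 lower in Lin+ cells than in progenitors were Egln3, an oxygen-sensing prolyl hydroxylase (-2.06 ± 0.21), Pdk1, a pyruvate dehydrogenase kinase (-1.87 ± 0.21), and Ldha, the lactate dehydrogenase subunit (-1.21 ± 0.20). Adm, the vasodilator peptide adrenomedullin, was at least 2.34-fold higher there. Hif1a, the oxygen-regulated HIF subunit, was higher in Lin+ cells than in LT-HSC (1.00 ± 0.21), at the edge of the 2-fold threshold.

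The genes nearest in pattern were found by the Euclidean distance between mean-centred levels over the 4 arrays, among 12300 genes well above background on at least 2 arrays. The distance has log2 units, grows with the range of a gene, rests on 4 points from shared arrays and is a description. Atp1b2, Cited4, Smim1 and Serp2 were not well above background in ST-HSC, Kcnab2 in LT-HSC and progenitors, and Bnc2 and Vwc2l in Lin+ cells, so their distances rest on the lowest well-above-background level there. Nearest to Car1 were Ces2g (distance 1.34), Sphk1 (1.41), Atp1b2 (1.59), Cited4 (1.76) and Smim1 (2.13). Nearest to Car2 were Fam20c (0.15), Mfhas1 (0.23), Serp2 (0.23), Clcn2 (0.35) and Gadd45g (0.35). Nearest to Car3 were Echdc3 (0.32), Macroh2a3 (0.32) and Dnmt3b (0.33). Near to Car9 were Ppat (0.09) and Gpatch4 (0.12), and nearest to Car12 were Ttyh2 (0.31), Bnc2 (0.51) and Vwc2l (0.71). For the nearly level members the nearest genes were C330018D20Rik (0.03), Srpr (0.04) and Kcnab2 (0.04) for Car4, and Ubxn6 (0.02), Clk2 (0.02) and Fam174a (0.04) for Car13.

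**Figure D5:**
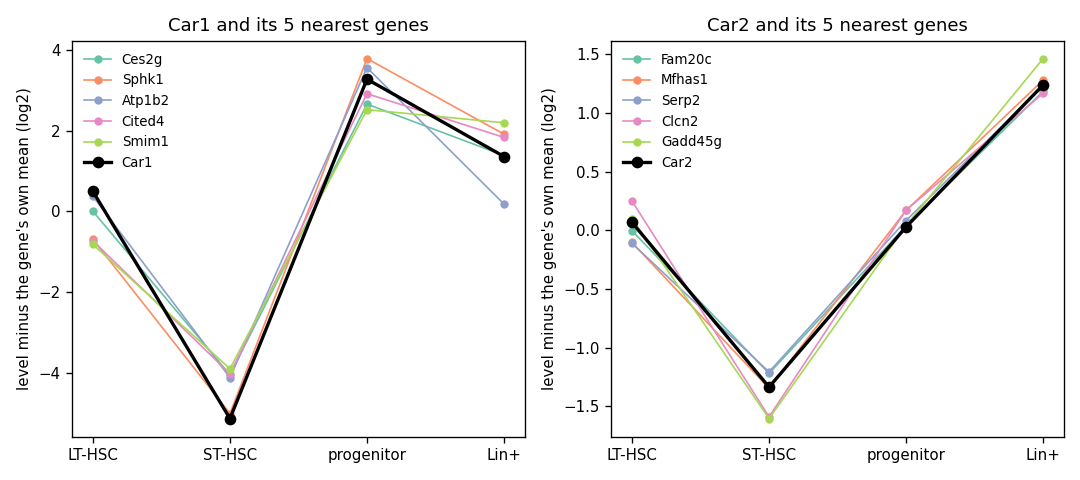
Levels of Car1 (left) and Car2 (right), in black, and of the 5 genes nearest to each in pattern, in colour, minus each gene's own mean (log2, vertical axis; the axes differ in scale) in LT-HSC, ST-HSC, progenitors and Lin+ cells, 1 array each. Every line is lowest in ST-HSC, the lines on the left peak in progenitors and those on the right in Lin+ cells.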

How the data were processed

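Spot intensity was read from 4 single-colour Agilent scanner files, 1 per fraction. Per the file headers and the submitters' processing notes, the deposited intensity is Agilent Feature Extraction 10.7.1.1 output, background-subtracted within each array. The authors' deposited value table gives each probe a linear ratio: for 100% of 55246 single-spot probes it was, within 1%, the processed signal over an array constant (191, 217, 137 and 230). Its column medians were 0.0619, 0.0630, 0.0704 and 0.0738. It served as an alternative.

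Control and outlier spots were left out and 3 of 55681 probes dropped. Log2 processed signals were scaled by each array's 75th percentile (192, 217, 137 and 230 in LT-HSC, ST-HSC, progenitors and Lin+ cells), and the lowest well-above-background levels were -2.94, -3.39, -2.87 and -3.47. Of 308 negative control spots, 7, 7, 5 and 4 were well above background. The 26762 probes (48.1%) named by accession through the RefSeq table of GRCm38.p6 gave 20284 genes. The array design uses another build, so that table gave names, gene order, gene span and promoters only. The brightest probe stood for a gene. Promoters were found there for Car4, Car6, Car9 and Car12. With 1 array per fraction no test was possible, and precision is limited by that number of arrays.

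The members and lists were chosen with earlier results of these data known. Named genes were all members, the 5 genes nearest to Car1 and Car2 and the 3 nearest to other members, up to 4 called genes per pathway list and comparison, and up to 3 of each marker list (further markers named beside Car1, Car2 and Car3 and further sorting antigens were chosen after their values were seen). Slc4a2, drawn with the exchangers, and Car7, Car5a and Car10 were also named outside this rule, and 1 gene within it is not reported here. Alternatives numbered 10, plus 1 chosen after seeing the data (5 gene span groups). The planned normexp correction (offset 50) used median spot signals, as the files used hold no mean signal column. Calling was tested on simulated data. Analyses used R 4.3.3 with limma 3.58.1, Python 3.11.15, numpy 2.4.6, pandas 2.3.3 and matplotlib 3.10.9.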

Additional observations from a re-analysis of the deposited data

How the results depend on the processing

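Of 306 recomputed member differences, 270 stayed within the 95% interval that spot error gives the reported value, 36 moved beyond it, 4 lost the 2-fold call and 8 gained it, and none of the called differences changed sign. The 270 include differences that some settings could hardly change. Dropping the floor or requiring both arrays leaves a difference measured on both arrays as it was. The authors' table has nearly the same array constants, and averaging probes acts only on members with more than 1 probe. With spike-in scaling 2 members were called higher in ST-HSC against LT-HSC (Car3 added, 1.02) and 1 member higher in progenitors against ST-HSC, where quantile normalization also left 1 member called, Car1. The count lower in progenitors against ST-HSC was 1, Car3, with the percentile over probes well above background on all arrays, the median gene set to 0, spike-in scaling and gene span groups. In Lin+ cells against LT-HSC 0 members were higher with median scaling, and 2 with the median gene set to 0 or spike-in scaling (Car1 added, 1.07 and 1.15). Car1 ranged over -4.21 to -6.55 in ST-HSC against LT-HSC and over 6.74 to 9.36 in progenitors against ST-HSC; the lower sizes came from normexp and the higher from averaging its probes, 1 of which lacked signal well above background in ST-HSC. Uncalled members changed sign with some settings: Car4, Car9 and Car13 with spike-in scaling, and Car4 also with the mean of its probes (-0.19 in Lin+ cells against progenitors). Car9 in progenitors against ST-HSC also turned with the percentile over probes well above background on all arrays (-0.05) and gene span groups (-0.21). With the median gene set to 0 it turned by a hair. The cause was not tested.

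Counts over all genes moved more. Higher in ST-HSC against LT-HSC were 733 genes, and 1326 with spike-in scaling and 451 with normexp; lower were 1137, and 606 with normexp and 747 when both arrays had to be well above background. Higher in progenitors against ST-HSC were 1267, and 797 (percentile over probes well above background), 505 (spike-in) and 614 (normexp); lower were 1284, and 3183 (spike-in) and 724 (normexp). Higher in Lin+ cells against progenitors were 1883, and 3342 (spike-in); lower were 3429, and 1912 (percentile over probes well above background), 1833 (median gene), 1352 (spike-in), 2073 (normexp) and 1939 (gene span). Of calls in ST-HSC against LT-HSC 39.2% were higher, and 63.0% with spike-in scaling. In progenitors against ST-HSC the share was 49.7%, and 13.7% to 38.9% under 6 other settings. In Lin+ cells against progenitors it was 35.4%, and 45.6% to 71.2% under 5 others. For Lin+ cells against LT-HSC it was 41.0%, and 30.7% with median scaling, 51.2% with the median gene set to 0 and 55.3% with spike-in scaling. No paired analysis was possible because each fraction has 1 array.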

Other observations

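Proton and lactate transport across the membrane works beside carbonic anhydrases in setting cell pH. Of 15 genes of sodium-proton exchangers, a proton channel and monocarboxylate carriers on the array, 1 of 12 compared was called higher and 0 lower in ST-HSC against LT-HSC, and 4 of 12 higher and 0 lower in progenitors against ST-HSC. Then 3 of 10 were higher and 1 lower in Lin+ cells against progenitors, and in Lin+ cells against LT-HSC 5 of 10 higher and 0 lower. All compared genes had shares of 5.81%, 10.0%, 14.5% and 16.1% higher in turn, and 9.01%, 10.2%, 26.4% and 23.2% lower. The list medians were 0.23, 0.40, 0.48 and 1.04, beside 0.02, 0.18, -0.34 and -0.17 over all compared genes. Hvcn1, the voltage-gated proton channel of phagocytes and B cells, was higher in progenitors than in ST-HSC (1.80 ± 0.20) and higher in Lin+ cells than in progenitors (1.76 ± 0.20). Slc16a3, a lactate exporter, was higher in progenitors than in ST-HSC (1.05 ± 0.20) and higher in Lin+ cells than in progenitors (3.66 ± 0.20). Slc16a8, another monocarboxylate carrier, was higher in progenitors than in ST-HSC (1.30 ± 0.27) and higher in Lin+ cells than in progenitors (1.85 ± 0.22). Slc9a5, a sodium-proton exchanger, was at least 10.4-fold higher in progenitors than in ST-HSC and at least 11.0-fold lower in Lin+ cells than in progenitors. Bsg, the chaperone of the lactate carriers, was higher in Lin+ cells than in LT-HSC (1.59 ± 0.20).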
